A study of Mus musculus with 12 samples.

Results

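RNA levels of 10 genes of the BCL2 family were examined in naive and germinal center (GC) B cells of the mouse: the prosurvival genes Bcl2, Bcl2l1 (BCL-XL), Mcl1, Bcl2a1b and Bcl2a1d (2 copies of A1), the BH3-only genes Bcl2l11 (BIM), Bbc3 (PUMA) and Bid, and the effectors Bax and Bak1. They were taken by symbol, with the RefSeq transcript of highest mean kept for each, and 10 of 10 were found among 24063 gene symbols and were among the 13704 that passed the filter on low values. The family decides whether a cell opens the mitochondrial path to death. Prosurvival members hold in check the pore-forming effectors BAX and BAK, and the BH3-only members release the effectors by occupying the prosurvival proteins or by activating BAX and BAK directly. B cells are a textbook setting for this balance, because naive B cells are long-lived while GC B cells divide rapidly and die unless they are selected by antigen and T cell help.

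The study asked how loss of the microRNA miR-146a in B cells alters GC responses. Spleen B cells of C57BL/6 mice were sorted, and 12 RNA-seq libraries fall into 4 groups of 3: GC B cells of B-KO mice, GC B cells of WT mice, naive B cells of B-KO mice and naive B cells of WT mice. B-KO mice carry a floxed miR-146a allele that CD21-cre deletes in mature B cells, so the gene is intact in other cells and up to that stage, and WT mice were their littermates. GC B cells (B220+PNA+GL7+) were taken from mice given sheep red blood cells (SRBC) 14 days earlier, and naive B cells (B220+) from mice that had not been immunized, at 8 to 10 weeks of age unless the study states otherwise. The GC and naive groups therefore differ in immunization and sort as well as in cell state, and these cannot be told apart. Replicates are described as biological, yet the labels name no mouse, so the p values measure the spread between these libraries. Values are RPKM as the authors deposited them, that is reads per kilobase of transcript scaled to 10000000 reads per library. Log2 fold changes are of RPKM + 1. RPKM is a level per length and can be set side by side between genes.

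The libraries held 22945634 to 39118224 transcript-assigned reads. The precursor of miR-146a, Mir146, is listed with a length of 64 bases and drew 1 read in 1 of the 6 B-KO libraries and 6 reads in 2 of the 6 WT libraries, which is too few to check the genotype. Mature B cell markers (5 of 5 in the table) were high throughout, with sums of 24125 to 27880 in B-KO GC, 24033 to 26963 in WT GC, 29991 to 38200 in B-KO naive and 34945 to 41225 in WT naive libraries. The sum of 8 GC markers such as Bcl6 was 7155 to 10099 in B-KO GC and 8537 to 10332 in WT GC libraries, against 463 to 1497 in B-KO naive and 290.3 to 521 in WT naive libraries. Naive libraries B-KO 1 and B-KO 2 stood apart with the 2 highest GC marker sums among naive libraries, at 1497 and 783. Among GC libraries, B-KO 2 and WT 3 stood apart with the lowest sums of 10 cell cycle genes, 6421 and 5864, where the other 4 had 8398 to 9709. Both also had more Ccr7, a homing receptor of naive B cells, at 615 and 301 RPKM against 53.9 to 73.6 in the other GC libraries. The summed level of 6 T cell genes was 358 to 718 in B-KO GC, 545 to 682 in WT GC, 207 to 265 in B-KO naive and 158 to 232 in WT naive libraries, with the T cell receptor chain Cd3e at no more than 2.87 RPKM in any library. Most of this sum was the kinase gene Lck, at 349 to 691 RPKM in B-KO GC and 532 to 666 RPKM in WT GC libraries, against 179 to 212 RPKM in B-KO naive and 140 to 198 RPKM in WT naive libraries. Cd4 lay the other way, at 2.16 to 4.28 RPKM in B-KO GC and 2.02 to 3.72 RPKM in WT GC libraries, against 10.96 to 19.9 RPKM in B-KO naive and 11.3 to 28.3 RPKM in WT naive libraries. The sum of 7 myeloid genes was 363 to 727 in B-KO GC, 327 to 734 in WT GC, 124 to 424 in B-KO naive and 90.4 to 151 in WT naive libraries, and that of 6 erythroid and platelet genes was 139 to 198 in B-KO GC, 26.5 to 274 in WT GC, 589.5 to 1091 in B-KO naive and 367 to 453 in WT naive libraries. In bulk RNA of this kind, fewer cells that carry a transcript and less of it per cell cannot be told apart.

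Since miR-146a is the molecule removed in B-KO mice, its sequence is shown first, with that of its paralog miR-146b, which the B-KO allele does not touch. Both are mature mouse sequences of RefSeq on GRCm38.p6, located at chr11:43374435-43374456 on the minus strand and at chr19:46342790-46342811 on the plus strand. Capitals mark the seed, bases 2 to 8 from the 5′ end, through which a microRNA pairs with 3′ UTRs, and it is the same GAGAACU in both.
mmu-miR-146a-5p: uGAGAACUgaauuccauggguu
mmu-miR-146b-5p: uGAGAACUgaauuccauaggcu

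The letters AGTTCTC, which pair with this seed, were searched on the sense strand of 3′ UTRs, taking for every gene the longest one that GENCODE vM21 annotates on GRCm38. Of the 10 BCL2 family genes, 2 held them once each, and 11.2% of 21020 genes with an annotated 3′ UTR did so. The alternative form GTTCTCA, which pairs with bases 2 to 7, ends in A and overlaps AGTTCTC in 6 bases, was in none of the 10 genes and in 12.4% of all. The match in Bcl2 begins at base 3697 of a 3′ UTR of 5086 bases (chr1:106539561-106539567, minus strand), and that in Bcl2l1 at base 207 of 1477 (chr2:152781932-152781938, minus strand). The 30 bases around each match are shown because Bcl2 and Bcl2l1 are also the 2 members with the largest differences between GC and naive B cells described next, in opposite directions. Capitals mark the match.
Bcl2: ggagccactaaAGTTCTCttctgagcttat
Bcl2l1: ccccacatctcAGTTCTCttggcctcaaaa

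Whether the family differed between GC and naive B cells was asked separately in each genotype. In WT mice, 8 of the 10 genes passed the test (limma, adjusted p under 0.05 over all 13704 genes). Bcl2l1, Bcl2a1b, Bcl2a1d, Bbc3, Bid and Bak1 were higher in GC B cells, and Bcl2 and Mcl1 were lower. GC and naive B cells differ in most of their transcripts, so this share has to be read against 62% of all genes tested, 31.7% higher and 30.2% lower. In B-KO mice 7 of the 10 passed, 5 higher and 2 lower, against 57.5% of all genes, 30% higher and 27.5% lower. The median log2 fold change of the 10 genes was 0.58 in B-KO and 0.996 in WT mice, where the median over all genes was 0.02 and 0.01. Bcl2, Bcl2l1, Bid and Bak1 passed in both genotypes under every alternative setting tried, whereas in B-KO mice the calls of Mcl1, Bcl2a1d and Bbc3 were each lost when any of several single libraries was left out.

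**Figure D1:**
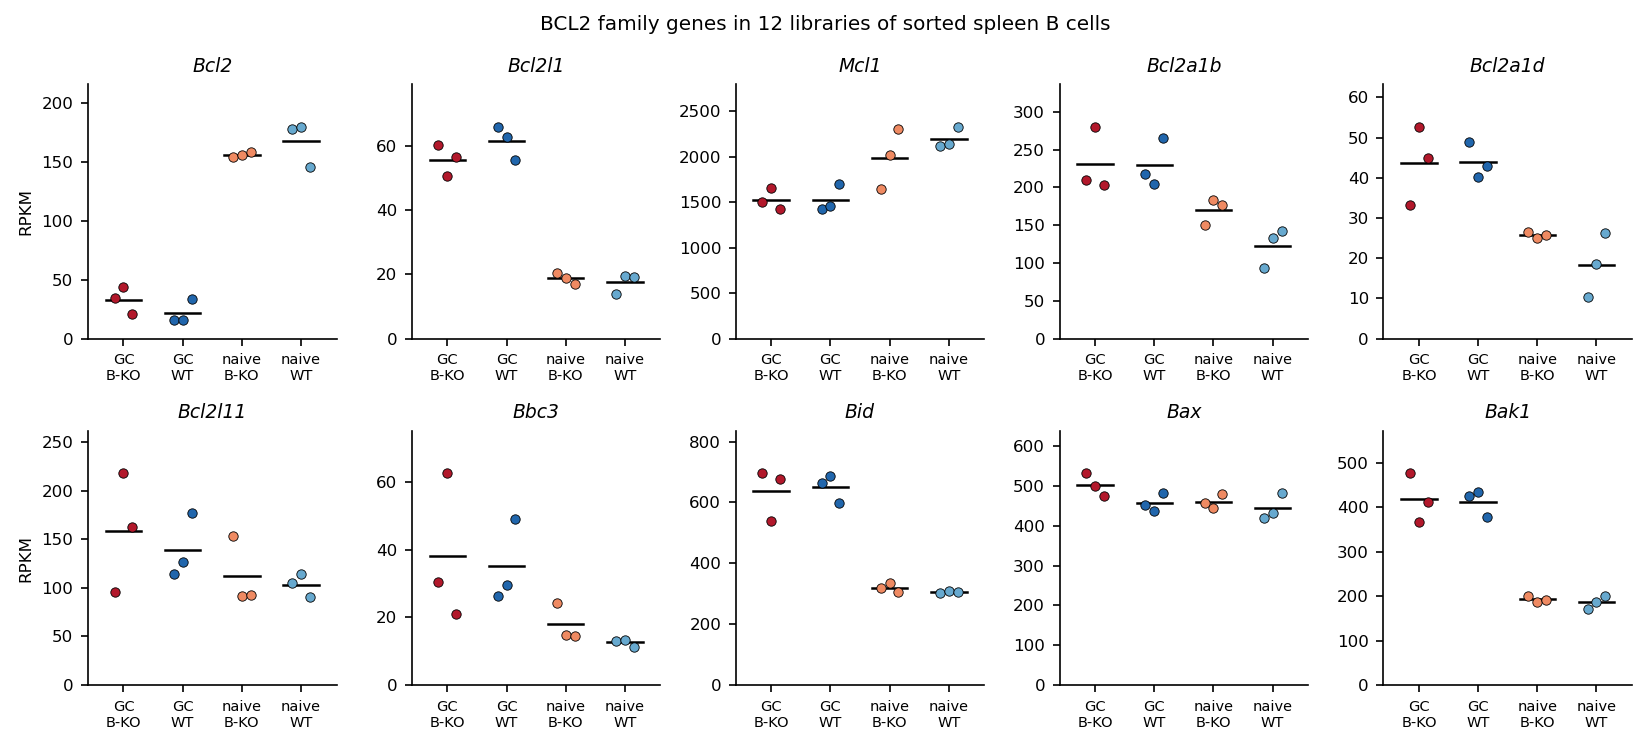
RPKM (vertical axes, from 0) of the 10 genes in 12 libraries, with 1 point per library and a bar at the group mean of 3. GC B-KO and GC WT libraries lie apart from both naive groups for Bcl2 (15.4 to 43.4 against 145 to 180 RPKM), Bcl2l1, Bid and Bak1, while the ranges of Bax overlap between all 4 groups, with 2 GC B-KO libraries (532 and 501 RPKM) above all the others.

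Among the prosurvival genes, Bcl2 (chr1:106538178-106714290 in mm10), the founding member of the family and the one most associated with the long life of resting lymphocytes, was the gene with the largest difference. It had 34.2, 43.4 and 20.6 RPKM in B-KO GC libraries, against 154, 156 and 159 RPKM in B-KO naive libraries. In WT mice, Bcl2 had 15.4, 15.9 and 33.4 RPKM in GC libraries, against 178, 180 and 145 RPKM in naive libraries. Every GC library was below every naive library of its genotype, and the lowest naive value was 3.35 times the highest GC value. The log2 fold change was -2.28 ± 0.29 (SE) in B-KO (adjusted p = 9.08e-05, limma) and -2.98 ± 0.29 in WT mice (adjusted p = 1.07e-05), that is 4.85-fold and 7.9-fold lower. Within the GC libraries, Bcl2 was highest in B-KO 2 at 43.4, B-KO 1 at 34.2 and WT 3 at 33.4 RPKM. The same 3 libraries had the highest sums of 4 naive B cell markers, at 2620, 2122 and 2279 against 1664 to 1746 in the other 3, with 7029 to 8411 in naive libraries. Their part in the Bcl2 level was not tested. Without GC B-KO 2 and WT 3 together, the log2 fold change of Bcl2 was -2.51 in B-KO and -3.33 in WT mice.

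A second transcript of Bcl2, of 2514 bases in place of 7203, had a like pattern, with 32.8, 46.9 and 18.9 RPKM in B-KO GC and 14.6, 14.2 and 38.7 RPKM in WT GC libraries, against 140, 135 and 139 RPKM in B-KO naive and 158, 159 and 140.1 RPKM in WT naive libraries. Reads on shared exons count for both transcripts, so these are not separate measurements. An annotated antisense gene, D630008O14Rik, overlaps 6.09% of the exonic bases of Bcl2, and reads were counted on both strands.

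On the other hand, Bcl2l1 (chr2:152780664-152831728), which encodes BCL-XL, went the opposite way. It had 60.1, 50.5 and 56.5 RPKM in B-KO GC libraries, against 20.5, 18.9 and 17.0 RPKM in B-KO naive libraries. WT GC libraries had 65.9, 62.9 and 55.5 RPKM, against 13.98, 19.5 and 19.3 RPKM in WT naive libraries. The groups were far apart in both genotypes, with a log2 fold change of 1.52 ± 0.14 (SE) in B-KO (adjusted p = 1.67e-05) and 1.76 ± 0.14 in WT mice (adjusted p = 3.98e-06), or 2.87-fold and 3.38-fold higher. All 4 RefSeq transcripts of Bcl2l1 were called higher in GC B cells in both genotypes, with log2 fold changes of 1.49 to 1.54 in B-KO and 1.71 to 1.79 in WT mice. Here too, reads on shared exons count for each transcript, so these are not separate measurements. The ratio of Bcl2 to Bcl2l1 RPKM was 0.365 to 0.86 in B-KO GC and 0.234 to 0.603 in WT GC libraries, against 7.5 to 9.35 in B-KO naive and 7.53 to 12.7 in WT naive libraries, so that Bcl2l1 outranked Bcl2 in every GC library and Bcl2 outranked Bcl2l1 in every naive one.

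Mcl1 (chr3:95658721-95663178), a short-lived prosurvival protein that GC B cells are known to depend on, was the most abundant transcript of the 10 genes in all 12 libraries. B-KO GC libraries had 1499.7, 1658 and 1429.7 RPKM, against 1644, 2017 and 2312 RPKM in B-KO naive libraries. WT GC libraries had 1424, 1457 and 1702 RPKM, against 2116, 2146 and 2330.2 RPKM in WT naive libraries. The groups did not overlap in WT mice, whereas naive B-KO 1 lay below the highest B-KO GC library. Mcl1 was lower in GC B cells, with a log2 fold change of -0.37 ± 0.12 (SE) in B-KO (adjusted p = 0.0228) and -0.53 ± 0.12 in WT mice (adjusted p = 0.00304), a smaller step than that of Bcl2. The B-KO call was lost without GC B-KO 1 (adjusted p = 0.0598), GC B-KO 3 (0.077), naive B-KO 2 (0.0642) or naive B-KO 3 (0.0958).

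The A1 genes are NF-κB targets and lie in a cluster on chromosome 9. Bcl2a1b (chr9:89199273-89207838) had 209, 280.1 and 203 RPKM in B-KO GC libraries, against 151, 184 and 176 RPKM in B-KO naive libraries, and the log2 fold change of 0.43 ± 0.17 (SE) did not pass (adjusted p = 0.0546). In WT mice, Bcl2a1b had 218, 204 and 265 RPKM in GC libraries, against 93.2, 133 and 143 RPKM in naive libraries, and was higher by a log2 fold change of 0.91 ± 0.17 (adjusted p = 0.000937). No GC library overlapped a naive one of its genotype. The 2 steps were not shown to differ, since their difference in log2 fold change, B-KO minus WT, was -0.48 ± 0.25 (adjusted p = 1). In B-KO mice, Bcl2a1b passed in 5 of 25 alternative settings, with adjusted p of 0.0247 to 0.277 over all of them.

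Bcl2a1d (chr9:88723288-88731850) was present at a lower level of the same shape. It had 33.1, 52.7 and 44.9 RPKM in B-KO GC libraries, against 26.4, 25.0 and 25.9 RPKM in B-KO naive libraries, and 49.0, 40.1 and 43.0 RPKM in WT GC libraries, against 10.4, 18.5 and 26.2 RPKM in WT naive libraries. The groups did not overlap, and the log2 fold change was 0.71 ± 0.27 (SE) in B-KO (adjusted p = 0.0419) and 1.30 ± 0.27 in WT mice (adjusted p = 0.00153). Only 25 to 65 reads stood behind the WT naive values, and the B-KO call was lost on leaving out any of 8 single libraries, namely GC B-KO 2 or 3, GC WT 1 or 2, naive B-KO 1, 2 or 3 or naive WT 2 (adjusted p = 0.0522 to 0.13). The A1 copies are near-identical in part: 57.6% of the 50-base windows of Bcl2a1b and 79.5% of those of Bcl2a1d also occur in another A1 copy, so the split between them is uncertain. Gm29094, on the same strand, shares 49.1% of the exonic bases of Bcl2a1b, so reads there cannot be assigned to either gene alone. The 4 copies summed gave a log2 fold change that passed in both genotypes, with adjusted p = 0.0413 in B-KO mice. Bcl2a1b and Bcl2a1d together made up 13.2 to 16.0% of the RPKM of the 5 prosurvival genes in B-KO GC and 13.7 to 15.1% in WT GC libraries, against 7.51 to 8.88% in B-KO naive and 4.29 to 6.34% in WT naive libraries. Mcl1 held 79.5 to 81.7% in B-KO GC and 80.3 to 81.9% in WT GC libraries, against 82.4 to 86.0% in B-KO naive and 86.0 to 87.8% in WT naive libraries.

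The 3 BH3-only genes had unlike calls. Bcl2l11 (chr2:128126038-128162547) encodes BIM, the BH3-only protein that most limits lymphocyte numbers in mice. It had 95.6, 218 and 163 RPKM in B-KO GC libraries, against 153, 92.0 and 92.3 RPKM in B-KO naive libraries, and 114, 127 and 177 RPKM in WT GC libraries, against 105, 114 and 90.2 RPKM in WT naive libraries. GC and naive libraries overlapped in both genotypes. The log2 fold change was 0.46 ± 0.29 (SE; 95% interval -0.19 to 1.10; adjusted p = 0.2) in B-KO and 0.41 ± 0.29 (95% interval -0.23 to 1.05; adjusted p = 0.247) in WT mice. Neither passed. The call in B-KO mice was made only without GC B-KO 1, the GC library with the lowest value (adjusted p = 0.0257), with a log2 fold change of 0.78. Without GC B-KO 2, the library with the highest value, it was 0.19 (adjusted p = 0.587).

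Since Bcl2 fell and Bcl2l11 did not pass in either direction, the ratio of the RPKM of Bcl2 to that of Bcl2l11 was described in each library, with no test. It was 0.358, 0.2 and 0.127 in B-KO GC and 0.136, 0.126 and 0.189 in WT GC libraries, against 1.003, 1.69 and 1.72 in B-KO naive and 1.68, 1.57 and 1.61 in WT naive libraries. Every GC library thus had more Bcl2l11 than Bcl2 RNA per length, and every naive library had at least as much Bcl2. The naive library nearest to the GC range was B-KO 1, which also had the highest GC marker sum among naive libraries and the highest Bcl2l11 among them.

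**Figure D2:**
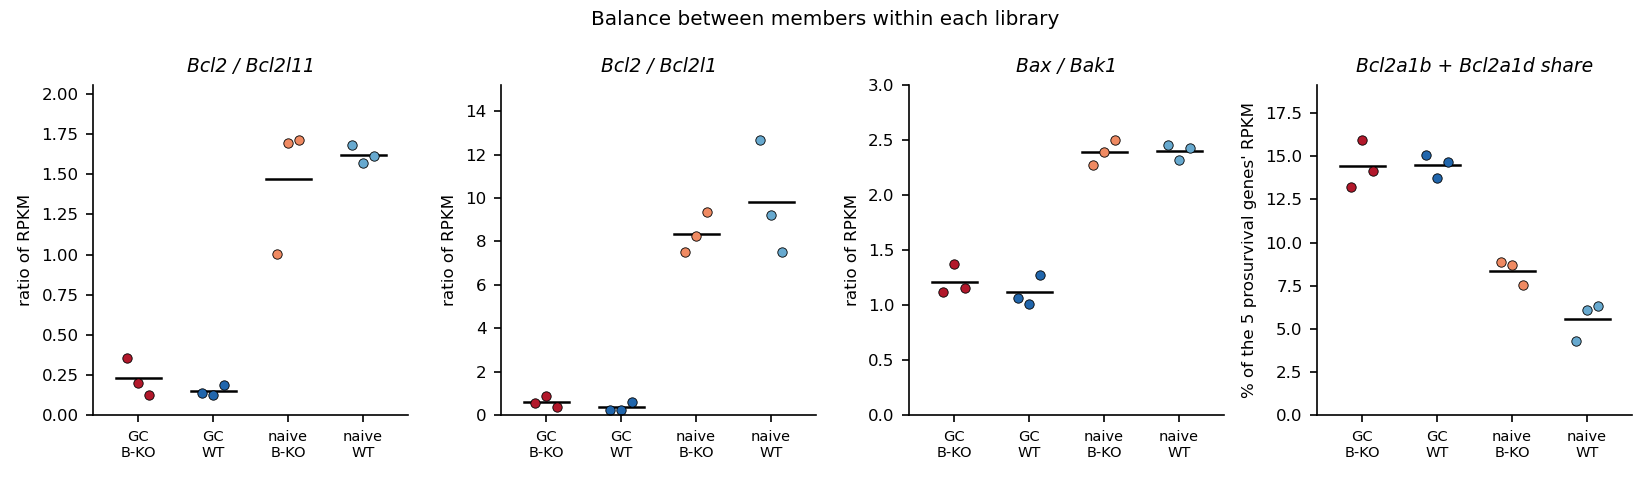
Ratios of RPKM between members within each library, and the share (%) of Bcl2a1b and Bcl2a1d in the summed RPKM of the 5 prosurvival genes, with 1 point per library and a bar at the mean of 3. Bcl2 over Bcl2l11 lies at 0.126 to 0.358 in GC and at 1.003 to 1.72 in naive libraries, and Bax over Bak1 at 1.01 to 1.37 in GC and at 2.27 to 2.50 in naive libraries.

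Bbc3 (chr7:16309583-16318334) encodes PUMA, a p53 target that kills in response to DNA damage and loss of survival signals. By group means its level was the lowest of the 10 in naive B cells. B-KO GC libraries had 30.6, 62.6 and 21.0 RPKM, against 24.2, 14.9 and 14.6 RPKM in B-KO naive libraries. WT GC libraries had 26.5, 29.7 and 49.2 RPKM, against 13.2, 13.4 and 11.2 RPKM in WT naive libraries. All WT GC libraries were above all WT naive ones, while naive B-KO 1 lay above GC B-KO 3. Bbc3 was higher in GC B cells by a log2 fold change of 0.94 ± 0.36 (SE) in B-KO (adjusted p = 0.0438) and 1.36 ± 0.36 in WT mice (adjusted p = 0.00676). Without GC B-KO 2, the library with the highest value, the B-KO step was 0.52 (adjusted p = 0.161), and the B-KO call held in 9 of 24 alternative settings. It was also lost without GC B-KO 1, GC WT 2, naive B-KO 2 or 3 or any naive WT library (adjusted p = 0.0542 to 0.122).

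Bid (chr6:120893119-120916820), which links death receptors to mitochondria once caspase-8 has cut it, was the BH3-only gene with the clearest difference. It had 696, 539 and 677 RPKM in B-KO GC libraries, against 320.0, 334 and 304 RPKM in B-KO naive libraries. In WT mice it had 665, 687 and 599 RPKM in GC libraries, against 301, 310.4 and 305 RPKM in naive libraries. The lowest GC value was 1.61 times the highest naive value, and the log2 fold change was 0.99 ± 0.09 (SE) in B-KO (adjusted p = 1.63e-05) and 1.09 ± 0.09 in WT mice (adjusted p = 4.84e-06). The antisense neighbour Bcl2l13 overlaps 17.7% of the exonic bases of Bid.

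Of the 2 effectors, Bak1 passed the test and Bax did not, except in B-KO mice under array quality weights, which let each library count by its estimated precision (log2 fold change of 0.17, adjusted p = 0.0423). Bak1 (chr17:27019812-27028626), whose product BAK sits on the mitochondrial membrane, had 476, 366 and 411 RPKM in B-KO GC libraries, against 201, 186 and 191 RPKM in B-KO naive libraries. WT GC libraries had 425, 434 and 379 RPKM, against 171, 187 and 199 RPKM in WT naive libraries. No GC library came near a naive one, and Bak1 was higher by a log2 fold change of 1.10 ± 0.10 (SE) in B-KO (adjusted p = 1.32e-05) and 1.15 ± 0.10 in WT mice (adjusted p = 4.55e-06). Ggnbp1, which runs antisense, overlaps 25.5% of the exonic bases of Bak1, and reads of both genes cannot be told apart there.

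Bax (chr7:45461695-45466898), whose product BAX moves from the cytosol to mitochondria, had 532, 501 and 474 RPKM in B-KO GC libraries, against 457, 445 and 479 RPKM in B-KO naive libraries, and 452, 438 and 481 RPKM in WT GC libraries, against 421, 432 and 483 RPKM in WT naive libraries. The ranges of all 4 groups overlapped, although GC B-KO 1 and 2 lay above every library of the other groups. The log2 fold change was 0.12 (95% interval -0.03 to 0.28; adjusted p = 0.151) in B-KO and 0.04 (95% interval -0.12 to 0.19; adjusted p = 0.643) in WT mice. For Bax, a difference between GC and naive B cells beyond a log2 fold change of 0.28 lay outside both intervals, whereas those of Bak1 began at 0.89 in B-KO and 0.93 in WT mice. Gm45808, on the same strand, overlaps 12.2% of the exonic bases of Bax. The ratio of Bax to Bak1 RPKM was 1.118 to 1.37 in B-KO GC and 1.01 to 1.27 in WT GC libraries, against 2.27 to 2.50 in B-KO naive and 2.31 to 2.46 in WT naive libraries.

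**Figure D3:**
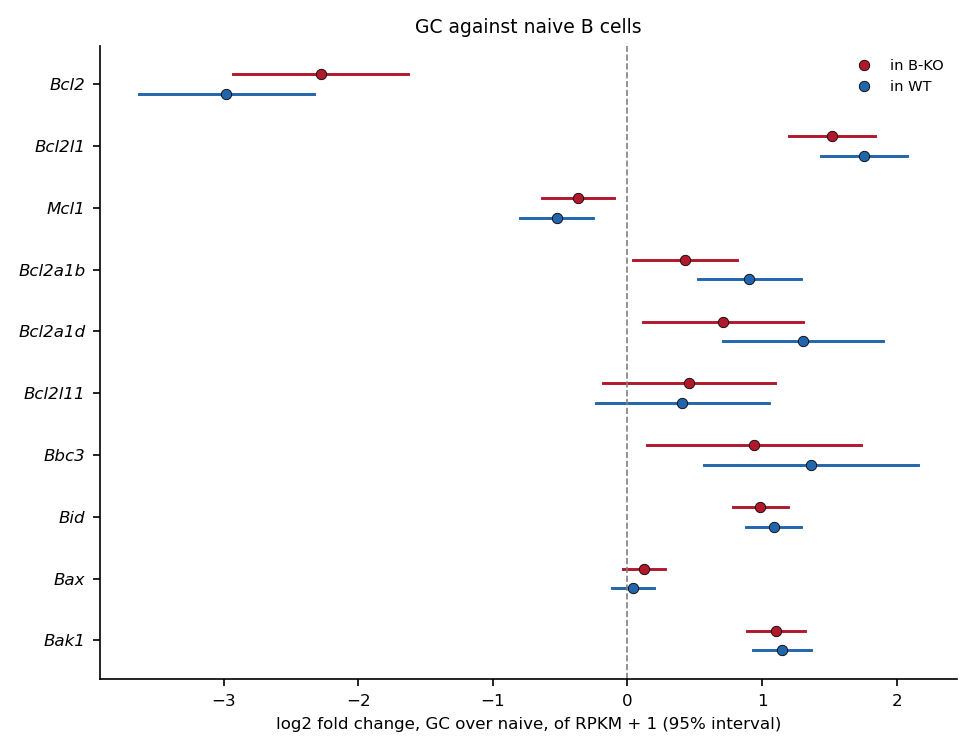
Log2 fold change of RPKM + 1, GC over naive B cells, for each gene in B-KO mice (upper point) and WT mice (lower point), with 95% intervals from limma. Bcl2 lies at -2.28 and -2.98 and Bcl2l1 at 1.52 and 1.76, while the intervals of Bax and Bcl2l11 include 0 in both genotypes.

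With respect to the order of levels per length, Mcl1 led in all 4 groups and was followed in GC B cells by Bid, Bax, Bak1, Bcl2a1b, Bcl2l11, Bcl2l1, Bcl2a1d, Bbc3 and Bcl2, by group means of both genotypes. In naive B cells it was followed by Bax, Bid and Bak1, then by Bcl2 and Bcl2a1b, whose order differed between the genotypes, and by Bcl2l11, Bcl2a1d, Bcl2l1 and Bbc3. Bcl2 thus took place 6 in B-KO naive and 5 in WT naive B cells and place 10 in both GC groups. Several neighbours did not differ beyond their spread: the range of Bbc3 overlapped those of Bcl2a1d and Bcl2 in both GC groups, those of Bax and Bak1 overlapped in B-KO GC libraries, and those of Bcl2 and Bcl2a1b in B-KO naive libraries. Bcl2a1b and Bcl2l11 also overlapped in B-KO GC libraries and in both naive groups, Bcl2l1 and Bcl2a1d in B-KO GC and WT naive libraries, and Bcl2l1 and Bbc3 in B-KO naive libraries. In WT naive libraries, Bak1 (171 to 199 RPKM) and Bcl2 (145 to 180 RPKM) overlapped as well. The spread between libraries itself was uneven, with coefficients of variation of 57.2% in B-KO GC and 35% in WT GC for Bbc3, 35% in B-KO GC and 47.5% in WT GC for Bcl2 and 38.5% in B-KO GC and 23.9% in WT GC for Bcl2l11. For Bax it was 5.8% in B-KO GC and 4.82% in WT GC.

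The 6 GC libraries were then set against their cell cycle marker sums, because B-KO 2 and WT 3 stood apart in these. Bbc3 was highest in exactly these 2 libraries, at 62.6 and 49.2 RPKM against 21.0 to 30.6 RPKM in the other 4. Bcl2l11 was also highest there, at 218 and 177 RPKM against 95.6 to 163 RPKM. A pair of short Bcl2l11 transcripts of 2298 and 2321 bases pointed the same way, the shorter of them having 87.0 and 91.3 RPKM in B-KO 2 and WT 3 against 31.4 to 50.1 RPKM in the other GC libraries. Relative to the long transcript of 4862 bases it reached 40.0% in B-KO 2 and 51.7% in WT 3, where the other 10 libraries had 24.6 to 35.3%. Pmaip1 (NOXA, another BH3-only gene), which was singled out after its values were seen, had 176 and 163 RPKM in these libraries against 61.8 to 74.8 RPKM in the other GC libraries. Of the other members, Mcl1 was also highest in these libraries, at 1658 and 1702 against 1424 to 1499.7 RPKM. So was Bcl2a1b, at 280.1 and 265 against 203 to 218 RPKM. Bid was lowest there, at 539 and 599 against 665 to 696 RPKM. Bak1 was lowest there too, at 366 and 379 against 411 to 476 RPKM. Bcl2l1 was likewise lowest, at 50.5 and 55.5 against 56.5 to 65.9 RPKM. High values in these libraries were thus not particular to BH3-only genes. As 1 of these libraries is B-KO and the other WT, they widen the spread within both groups, and the part of cell cycle or of other cells in these values was not tested.

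**Figure D4:**
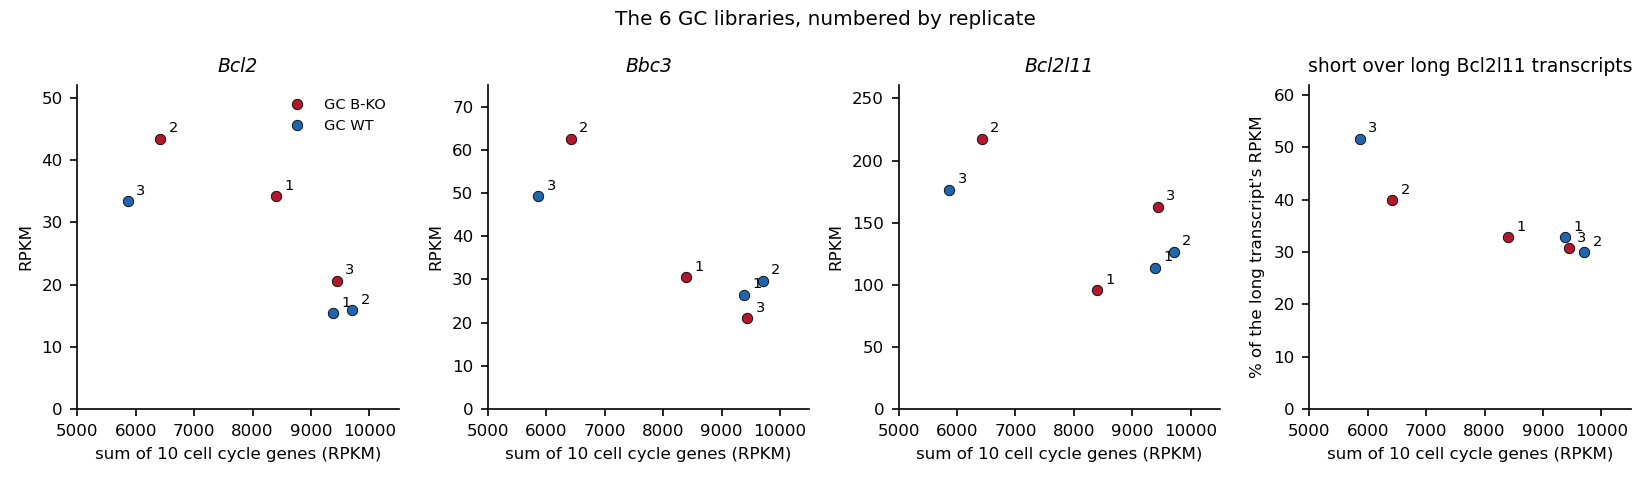
RPKM of Bcl2, Bbc3 and Bcl2l11, and the RPKM of a short Bcl2l11 transcript as % of the long one (vertical axes, from 0), against the summed RPKM of 10 cell cycle genes in the 3 GC B-KO and 3 GC WT libraries, numbered by replicate. B-KO 2 and WT 3, at sums of 6421 and 5864, hold the highest Bbc3 (62.6 and 49.2) and Bcl2l11 (218 and 177) values.

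Next, the genotypes were compared. None of the 10 genes passed between B-KO and WT GC B cells (limma, 0 of 10, with 0 at an unadjusted p under 0.05), where 0.0073% of all genes tested did. None passed between B-KO and WT naive B cells (0 of 10, with 1 at an unadjusted p under 0.05), against 0.0146% of all genes, nor over naive and GC B cells together (0 of 10, with 0 at an unadjusted p under 0.05), against 0.0219%. The difference between the GC and the naive genotype effect passed for 0 of 10 as well (0 at an unadjusted p under 0.05), against 0.0219% of all genes. limma voom on recovered reads also called 0 of 10 in each of these 4 comparisons. The 95% intervals of the members give the sizes of difference that these libraries leave possible.

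In GC B cells, the largest genotype difference among the members was that of Bcl2. With the values given above, 34.2, 43.4 and 20.6 RPKM in B-KO against 15.4, 15.9 and 33.4 RPKM in WT libraries, it averaged 32.8 ± 11.5 RPKM in B-KO and 21.6 ± 10.3 RPKM in WT GC B cells (SD, n = 3 each). The groups overlapped through WT 3, and the log2 fold change of 0.61 ± 0.29 (SE; 95% interval -0.04 to 1.26) had an unadjusted p = 0.0641 and an adjusted p = 0.888 (limma). Without WT 3 it was 0.96 (adjusted p = 0.33), without B-KO 2 it was 0.38 (adjusted p = 0.953), and without both it was 0.73 (adjusted p = 0.487). The step beyond that in naive B cells was 0.70 ± 0.42 (adjusted p = 1).

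Bcl2l1, the other gene with a seed match, had a GC genotype difference of -0.14 ± 0.14 (SE; 95% interval -0.46 to 0.18; adjusted p = 0.96) and a naive one of 0.10 ± 0.14 (95% interval -0.22 to 0.42; adjusted p = 1). It averaged 55.7 ± 4.85 RPKM in B-KO and 61.4 ± 5.38 RPKM in WT GC B cells (SD, n = 3 each). Neither of the 2 genes with a match thus passed in either cell state. For Bax, the GC difference was 0.13 (95% interval -0.02 to 0.29; adjusted p = 0.896), and for Bcl2l11 it was 0.14 (95% interval -0.51 to 0.78; adjusted p = 0.993). Mcl1, Bcl2a1b, Bcl2a1d, Bbc3, Bid and Bak1 had GC differences between -0.04 and 0.02, but the widths of their intervals were unequal, from -0.20 to 0.23 for Bak1 to -0.77 to 0.82 for Bbc3. Libraries of the 2 genotypes did not separate for any of the 10 genes in GC B cells, which happened for 9.29% of all genes tested.

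In naive B cells, 2 of the 10 genes, Bcl2a1b and Bbc3, had all B-KO libraries above all WT libraries, and 9.38% of all genes tested separated in either direction. Bcl2a1b averaged 170.1 ± 17.2 RPKM in B-KO and 122.9 ± 26.2 RPKM in WT naive B cells (SD, n = 3 each), with a log2 fold change of 0.48 ± 0.17 (SE), an unadjusted p = 0.0182 and an adjusted p = 0.995. Bcl2a1d, which shares sequence with it, had 0.56 ± 0.27 (adjusted p = 1). Naive WT 1 was the lowest WT library for either gene, and without it the steps were 0.30 for Bcl2a1b and 0.22 for Bcl2a1d. Without naive WT 3, the step of Bcl2a1d was 0.85. Bbc3 averaged 17.9 ± 5.47 RPKM in B-KO and 12.6 ± 1.22 RPKM in WT naive B cells, with a log2 fold change of 0.44 ± 0.36 (adjusted p = 1), and its highest value was in B-KO 1. Both genes were also higher in GC than in naive WT B cells, and GC marker sums were higher in naive B-KO 1 and 2 than in any WT naive library. In naive B-KO 3 the GC marker sum of 463 lay within the WT naive range of 290.3 to 521. That library had 176 RPKM of Bcl2a1b and 14.6 RPKM of Bbc3, against at most 143 and 13.4 RPKM in WT naive libraries. The paper reports a minimal increase in GC B cells in young B-KO mice at steady state, and the naive sort used B220 only. The part of GC B cells in the Bcl2a1b and Bbc3 differences was not tested. Without B-KO 1 and 2, which leaves a single B-KO naive library assumed to vary like the other groups, the log2 fold change was 0.54 for Bcl2a1b and 0.20 for Bbc3 (adjusted p = 1 for both). Among the other members, the naive genotype difference was -0.10 for Bcl2 (95% interval -0.74 to 0.55), -0.16 for Mcl1 (-0.42 to 0.11) and 0.09 for Bcl2l11 (-0.55 to 0.73), and those of Bid, Bax and Bak1 lay between 0.05 and 0.06.

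**Figure D5:**
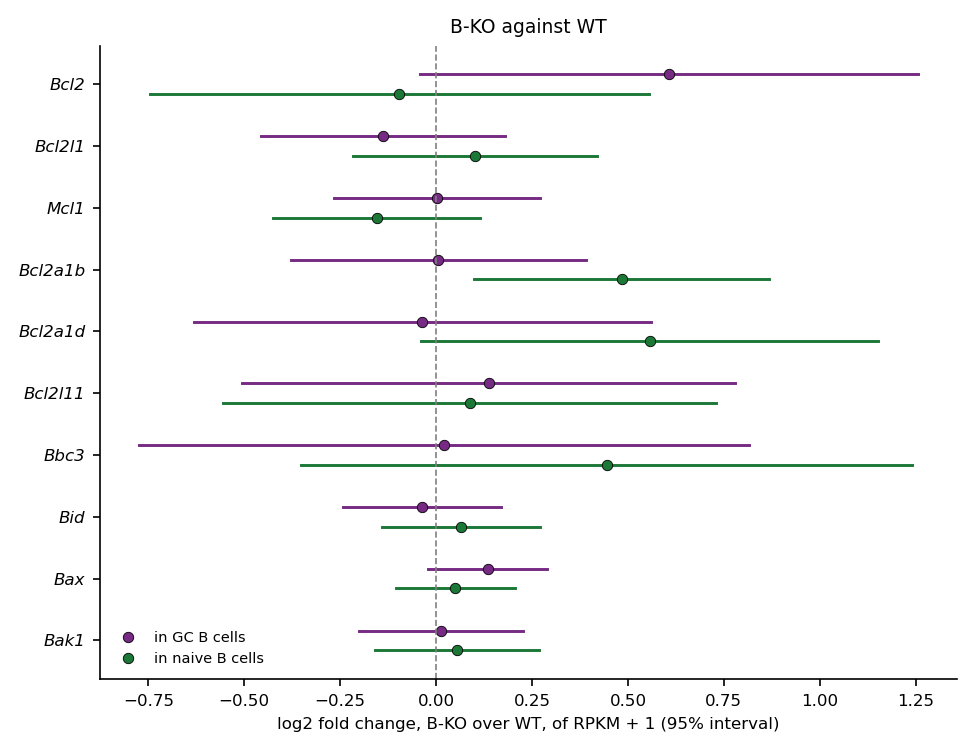
Log2 fold change of RPKM + 1, B-KO over WT, for each gene in GC B cells (upper point) and naive B cells (lower point), with 95% intervals from limma that are not adjusted for the number of genes. The interval of Bcl2a1b in naive B cells (0.10 to 0.87) leaves out 0, and all the other intervals include it.

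The rest of the death machinery was described from lists by role, with named genes being those of smallest p between GC and naive WT B cells. Of 16 other BCL2 family genes, 13 could be tested. Between GC and naive B cells, 4 were higher and 3 lower in B-KO, and 4 higher and 3 lower in WT mice, with a median log2 fold change of 0.26 in B-KO and 0.15 in WT mice. The shares of all genes called, 57.5% in B-KO and 62% in WT mice, are the background of this and the following counts. Bad, a BH3-only gene regulated by growth factor signals, averaged 190.3 ± 32.5 RPKM in B-KO GC and 191 ± 11.3 RPKM in WT GC libraries, against 85.7 ± 4.82 RPKM in B-KO naive and 75.9 ± 11.4 RPKM in WT naive libraries (SD, n = 3 each), and was higher in both genotypes. The BH3-only gene Bik was scarce in all groups, with 5.19 to 9.08 RPKM in B-KO GC and 3.18 to 5.57 RPKM in WT GC libraries, and was called higher as well. Bnip3 and Bnip3l, relatives that act in mitophagy, were lower in GC B cells. Bnip3 had log2 fold changes of -0.98 in B-KO and -1.27 in WT mice, and Bnip3l of -0.79 in B-KO and -1.04 in WT mice.

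Of 7 caspases and apoptosome genes, all tested, 4 were higher and none lower in GC B cells of each genotype, with a median log2 fold change of 0.32 in B-KO and 0.26 in WT mice. Apaf1, the scaffold of the apoptosome, was higher by a log2 fold change of 0.54 in B-KO and 0.50 in WT mice. Casp6 was higher by 0.25 in B-KO and 0.26 in WT mice, and Casp9 by 0.27 in WT mice while its B-KO value of 0.11 did not pass (adjusted p = 0.237).

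The death receptor arm, which feeds into Bid, held 8 tested genes, of which 3 were higher and 3 lower in B-KO, and 2 higher and 3 lower in WT mice. Fas, the receptor and itself a GC marker, had 669, 490 and 641 RPKM in B-KO GC and 591, 647 and 595 RPKM in WT GC libraries, and was higher by a log2 fold change of 2.89 in B-KO and 3.96 in WT mice. By contrast, Cflar, the inhibitor of caspase-8, was lower, with log2 fold changes of -0.79 in B-KO and -0.90 in WT mice. Ripk1 was lower too, at -0.48 in B-KO and -0.56 in WT mice, and so was Casp8 itself, at -0.29 in B-KO and -0.43 in WT mice. The median of the 8 genes was 0.01 in B-KO and -0.05 in WT mice.

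Inhibitors of apoptosis and their antagonists were called in both directions as well, 2 of 7 higher and 2 lower in each genotype (median -0.01 in B-KO and 0.04 in WT mice). Birc5 (survivin), which also serves in mitosis, was higher by a log2 fold change of 3.24 in B-KO and 4.20 in WT mice, with 498 RPKM in GC B-KO 2 and 423 RPKM in GC WT 3 against 801 to 848 RPKM in the other GC libraries. Birc3 (cIAP2), an NF-κB target, was lower, at -0.87 in B-KO and -1.12 in WT mice. Of the antagonists of these inhibitors, Htra2 was higher by 0.23 in B-KO and 0.27 in WT mice, and Diablo was lower, at -0.21 in B-KO and -0.30 in WT mice.

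Of 17 regulators of the members, 5 were higher and 6 lower in B-KO, and 5 higher and 5 lower in WT mice (median -0.06 in B-KO and 0.07 in WT mice). Bcl6, the GC master repressor that is known to repress BCL2 in human GC B cells and is itself among the GC markers, had 856, 647 and 826 RPKM in B-KO GC and 875, 812 and 858 RPKM in WT GC libraries, and was higher by a log2 fold change of 1.80 in B-KO and 1.87 in WT mice. E2f1, a cell cycle transcription factor, was higher by 2.30 in B-KO and 2.81 in WT mice. Fbxw7, a ubiquitin ligase component that acts on MCL1 protein, was higher by 0.81 in B-KO and 1.14 in WT mice, and Mdm2, the brake on p53, by 0.51 in B-KO and 0.53 in WT mice. None of the 52 tested genes of these 5 lists passed between B-KO and WT mice in GC B cells, in naive B cells or over both (limma, with 3, 6 and 6 of them at an unadjusted p under 0.05), and 0.0073%, 0.0146% and 0.0219% of all genes did.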

How the data were processed

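The deposited table holds RPKM for 33072 RefSeq transcripts in 12 columns, 1 per library, and no column of other samples (0). Per the methods, adaptors were trimmed, reads of low quality were masked, STAR (2.2.0c in the submitters' processing notes) aligned them and the authors computed RPKM with HOMER (version not given in the sources used here), which the file header shows to be counted over exons on both strands and scaled to 10000000 per library. The methods and header name mm10, the notes mm9 and mm10, and the labels total RNA where the methods say poly-A RNA.

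Genes were compared with limma 3.58.1 in R 4.3.3 on log2(RPKM + 1), so fold changes of low genes are understated. The transcript with the highest mean was kept per symbol, and 13704 of 24063 symbols were tested because 3 or more libraries reached an RPKM of 1. The 4 group means were fitted over 12 libraries (8 residual degrees of freedom, eBayes with trend), with Benjamini-Hochberg adjustment over all genes and a threshold of 0.05. The contrasts were B-KO against WT in GC B cells, in naive B cells and over both, their difference, and GC against naive B cells in each genotype. The study's methods name no test per gene. Reads recovered from RPKM and length were whole within 0.1 for 100% of the values checked (99.99% of those above 0) and served a voom alternative and the read counts given.

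Named genes were all 10 members and, of each other list (other BCL2 family genes, caspases and apoptosome, death receptor arm, inhibitors of apoptosis, regulators), up to 4 genes of smallest p between GC and naive WT B cells. Some genes that the rule or a list holds are not reported here by name. Members and lists were chosen with earlier results of these data known. The scripts were tested on simulated data. Alternatives were other pseudocounts, filters, scalings, transcript rows, weights, tests, sets of libraries and a block of replicate numbers. Figures were drawn with matplotlib.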

Additional observations from a re-analysis of the deposited data

How the results depend on the processing

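In WT mice, 8 members were called between GC and naive B cells in 24 of 24 alternative settings. In B-KO mice the count of 7 ranged over 4 to 8, with 6 by limma voom on recovered reads, 5 with no filter on low values and 6 with a pseudocount of 10. Leaving out single libraries gave 4 to 8, with 4 without naive B-KO replicate 2 or naive B-KO replicate 3. Members called between genotypes, and for the difference of the genotype effects, were 0 in all settings run, and several genotype differences changed sign, as follows (log2 fold changes, none past the threshold).

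Over all genes, the calls between genotypes in GC B cells numbered 1 and ranged over 0 to 5, in naive B cells 2 over 0 to 83 and over both 3 over 0 to 27, with 2, 83 and 27 under array quality weights and 0 in each by voom. Whether the replicate numbers pair libraries is not stated. Deviations from the group means correlated over 0.1 in 1 of 18 same-numbered pairs (-0.57 to 0.15). With means of only 3 libraries, this cannot decide whether such pairs share a mouse or batch. With a replicate block, 8 members were called in WT and 7 in B-KO mice between GC and naive B cells and 0 between genotypes. In that fit Bcl2a1b passed in B-KO mice (adjusted p = 0.0367) and Bbc3 did not (adjusted p = 0.066).

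Median-of-ratios rescaling took the median of all genes between genotypes to 0.0025 in GC B cells and 0.0058 over both, against 0.031 and 0.029 without it, and members near 0 crossed it with that shift. In GC B cells, it gave -0.028 for Mcl1, -0.025 for Bcl2a1b, -0.0086 for Bbc3 and -0.019 for Bak1, and the sum of the A1 genes gave -0.0069. Without GC WT 3 and GC B-KO 2, chosen after seeing the data, Bcl2a1b was -0.032, Bbc3 -0.14 and Bid 0.021. In naive B cells, array quality weights gave -0.10 for Bcl2l11, and leaving out naive B-KO 1 and 2 (also chosen after seeing the data) gave -0.036 for Bcl2l1, 0.074 for Mcl1, -0.15 for Bcl2l11 and -0.0044 for Bid. Over both cell states, Bid was -0.011 after rescaling, Bcl2l1 0.0016 from summed transcripts and 0.085 in its transcript of 1443 bases, and without naive B-KO 1 and 2 Mcl1 was 0.039, Bcl2l11 -0.0081 and Bid -0.0204. For the difference of the genotype effects, Bcl2l11 was -0.16 and -0.21 in its short transcripts and -0.032 without GC WT 3 and GC B-KO 2, and Mcl1 was -0.072 without naive B-KO 1 and 2. For the settings other than rescaling, the cause was not tested.

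Leaving out single libraries moved the GC genotype difference over 0 for Bcl2a1d (-0.18 to 0.14), Bak1 (-0.087 to 0.10), Mcl1 (-0.057 to 0.083), Bcl2a1b (-0.14 to 0.11), Bcl2l11 (-0.13 to 0.46), Bbc3 (-0.40 to 0.36) and Bid (-0.10 to 0.079). It did so in naive B cells for Bcl2l11 (-0.16 to 0.21), Bcl2l1 (-0.048 to 0.18) and Bak1 (-0.00073 to 0.11), over both for Bcl2l11 (-0.021 to 0.27), Bid (-0.0199 to 0.072), Bcl2l1 (-0.093 to 0.0202) and Bak1 (-0.015 to 0.079), and for the difference of the effects for Bcl2l11 (-0.22 to 0.37), Bak1 (-0.14 to 0.047) and Bid (-0.17 to 0.015). With 3 libraries a group, intervals of genotype differences were widest for Bbc3, Bcl2 and Bcl2l11, and Bcl2a1d rested on 25 to 139 reads a library.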
